A study of Drosophila melanogaster with 6 samples.

Results

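Orco, Ir25a, Ir8a and Ir76b encode the co-receptors that are shared by most odour-sensing neurons of the Drosophila melanogaster antenna. They were chosen by name and matched by FlyBase symbol to the gene identifiers of the deposited counts. All 4 were found among 17698 identifiers, and all 4 were among the 9237 genes that passed the filter on low counts. Antennal RNA was compared between 3 E93RNAi and 3 control samples, each from a pool of female flies 2 to 5 days old. E93 (Eip93F), the targeted gene, encodes a transcription factor of the ecdysone hormone response.

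The groups were taken from the sample titles. E93RNAi flies carried peb-Gal4, UAS-Dcr2 and the hairpin construct UAS-E93KK108140/+ against E93. Control flies carried the same peb-Gal4 and UAS-Dcr2 with VIE-260B/+ in place of the hairpin. The shared peb-Gal4 driver is active in developing sensory neurons, so the knockdown was not aimed at the other cells of the antenna. Dcr2, an enzyme that strengthens RNA interference, was overexpressed in both groups. The genotype text in the labels' treatment protocol names the 2 genotypes the other way round from the titles. Each pair of replicates drew on 350 females per genotype, and the antennae of a pool were sequenced together. The targeted gene Eip93F had 334.5 ± 15.1 CPM in E93RNAi and 381.9 ± 15.8 CPM in control (SD, n = 3 each), where CPM is the count divided by the library total in units of 1e+06 reads, after scaling by the trimmed mean of M-values. Its log2 fold change was -0.19 ± 0.048 (SE; edgeR adjusted p = 0.0119), and the groups did not overlap. Without control replicate 2 it was -0.16 with an adjusted p of 0.0564, and without E93RNAi replicate 3 it was -0.16 with an adjusted p of 0.0552 (edgeR). Gene counts do not separate reads of a hairpin from reads of the endogenous transcript.

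Co-receptors form odour-gated channels together with a tuning receptor, which gives each neuron its odour specificity. Orco pairs with the odorant receptors (Or) of basiconic and trichoid sensilla and of 1 class of coeloconic neuron. Ir25a, Ir8a and Ir76b belong to the ionotropic receptors (Ir), relatives of glutamate receptors that serve coeloconic sensilla, the sacculus and the arista. Ir8a works with receptors for acids and related odours, Ir25a with Ir76b works with receptors for amines, and Ir25a with Ir93a serves temperature and humidity sensing. Since a co-receptor is made in every neuron that uses it, its RNA can be set beside that of many tuning receptors at once. In whole antennae fewer neurons and less RNA per neuron cannot be told apart.

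Orco (FBgn0037324) lies on arm 3R at 5407183 to 5412406, minus strand, with 1941 bp of exon sequence. Ir25a (FBgn0031634) lies on arm 2L at 4830846 to 4835300, minus strand, with 3587 bp. Ir8a (FBgn0052704) lies on arm X at 9232726 to 9236585, minus strand, with 2811 bp. Ir76b (FBgn0036937) lies on arm 3L at 20108484 to 20111534, minus strand, with 2308 bp. Positions are those of the Ensembl annotation BDGP6.54, and the submitters' processing notes name build BDGP6. No exon of these genes overlaps an exon of another gene in the Ensembl annotation on either strand. Whether this also holds for the annotation used in counting is not known.

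The samples held 17115956 to 18127735 gene counts in E93RNAi and 16639918 to 18400979 in control. At this depth 3 counts, the smallest signal taken as countable, correspond to 0.165 to 0.175 CPM in E93RNAi and 0.163 to 0.180 CPM in control before TMM scaling. The least counted co-receptor value was 3916 reads, for Ir8a in control replicate 1. Across all tested genes 2248 of 9237 (24.3%) had an adjusted p under 0.05 in edgeR's quasi-likelihood test, 13.8% higher and 10.5% lower in E93RNAi. The groups did not overlap for 37.5% of tested genes, 19.9% higher and 17.6% lower in E93RNAi. The median log2 fold change over all tested genes was 0.00028.

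The 4 co-receptors did not move together. Orco and Ir25a fell, Ir8a rose, and Ir76b did not pass the test. Of the 4, 3 were called, against 24.3% of all tested genes. Their log2 fold changes ran between -0.30 and 0.46, while tuning receptors ranged from near loss to several-fold gains. The share called rests on 4 genes.

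Orco is the obligate partner of every tuning odorant receptor and carries those receptors to the sensory cilium. It had 2934, 2861 and 2869 CPM in E93RNAi replicates 1 to 3, against 3273, 3294 and 3375 CPM in control replicates 1 to 3. All E93RNAi samples lay below all control samples, and the gap between the groups was wider than the range within either. The mean fell by 12.8%, with 2888 ± 40.0 CPM in E93RNAi and 3314 ± 53.6 CPM in control (SD, n = 3 each). The log2 fold change was -0.20 ± 0.041 (SE; 95% interval -0.29 to -0.11; edgeR adjusted p = 0.00357). Orco was among the most abundant transcripts, at rank 21 of 9237 tested genes by mean CPM in control.

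Ir25a is the most broadly used co-receptor of the ionotropic family and is found in olfactory, temperature, humidity and taste neurons. It had 346, 344 and 337 CPM in E93RNAi, against 411, 421 and 430 CPM in control. The groups did not overlap. The mean fell by 18.7%, with 342.1 ± 4.47 CPM in E93RNAi and 420.6 ± 9.22 CPM in control (SD, n = 3 each). The log2 fold change was -0.30 ± 0.040 (SE; 95% interval -0.39 to -0.21; edgeR adjusted p = 0.000148).

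Ir8a is the co-receptor of acid-sensing coeloconic and sacculus neurons. It had 328, 352 and 356 CPM in E93RNAi, against 238, 258 and 256 CPM in control. Each E93RNAi sample exceeded each control sample, and replicate 1 was the lowest of its group on both sides. The mean was 37.7% higher, at 345.3 ± 15.2 CPM in E93RNAi and 250.7 ± 10.8 CPM in control (SD, n = 3 each). The log2 fold change was 0.46 ± 0.049 (SE; 95% interval 0.36 to 0.57; edgeR adjusted p = 1.85e-05). This was the largest change among the 4 genes, and it ranked 1204 among 9237 tested genes by absolute log2 fold change.

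Ir76b serves with Ir25a in amine-sensing neurons and is also used by taste neurons. It had 331, 313 and 314 CPM in E93RNAi, against 327, 332 and 333 CPM in control. E93RNAi replicate 1 fell inside the control range and the other samples lay below it. The means were 319.4 ± 10.1 CPM in E93RNAi and 330.6 ± 3.53 CPM in control (SD, n = 3 each). The log2 fold change of -0.05 ± 0.041 (SE) had an adjusted p of 0.451 (edgeR), and its 95% interval ran from -0.14 to 0.04. The estimates for Orco, Ir25a and Ir8a lie outside that interval, but the 95% interval of Orco (-0.29 to -0.11) overlaps it.

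**Figure D1:**
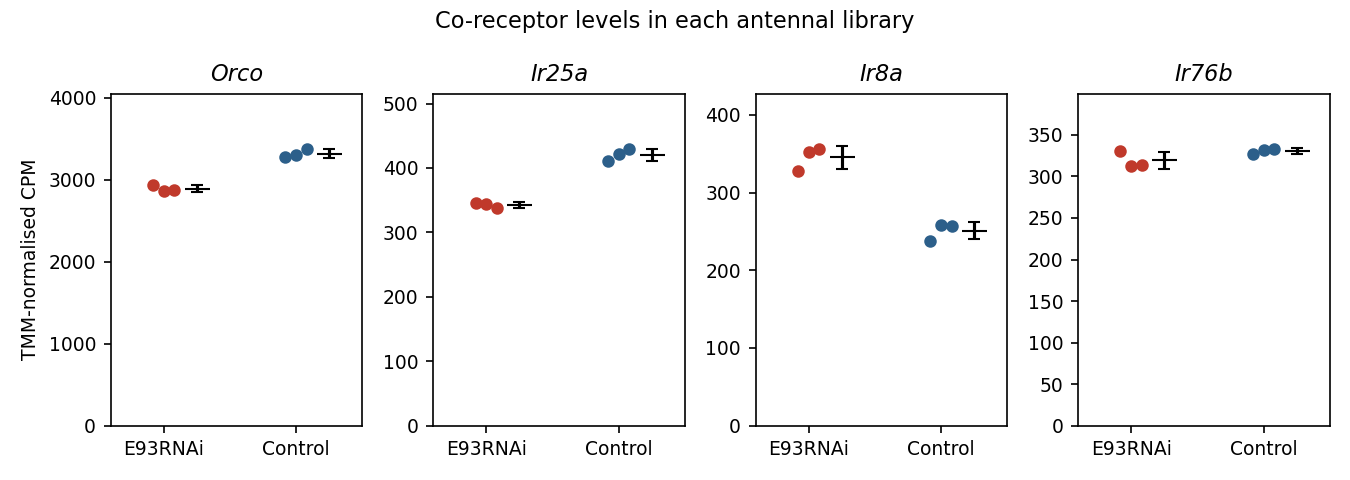
Level of each co-receptor gene in TMM-normalised CPM, with E93RNAi on the left and control on the right of each panel. Points are single samples (n = 3 each), the bar and whiskers are the mean and SD, and every axis starts at 0. Orco and Ir25a are lower and Ir8a higher in all 3 E93RNAi samples, while the Ir76b groups overlap.

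The order of the genes by level was compared on CPM per kilobase of exon, which allows different genes to be set side by side. Orco was far above the rest in each sample, with a level of 1488 ± 20.6 CPM per kilobase in E93RNAi and 1707 ± 27.6 in control (SD, n = 3 each). Ir76b came next, with a level of 138.4 ± 4.39 CPM per kilobase in E93RNAi and 143.3 ± 1.53 in control. The third and the fourth place were exchanged between the groups. Ir8a had a level of 122.8 ± 5.40 CPM per kilobase in E93RNAi and 89.2 ± 3.86 in control, and Ir25a had 95.4 ± 1.25 in E93RNAi and 117.3 ± 2.57 in control. Ir25a was thus below Ir8a in 3 of 3 E93RNAi samples and above it in 3 of 3 control samples. Within each group all neighbours in this order were separated by more than their spread over samples, and the closest pair was Ir76b over Ir8a in E93RNAi, at ratios of 1.23, 1.08 and 1.07.

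Ratios between co-receptors of the same sample do not depend on how libraries are scaled. The log2 ratio of Ir25a over Ir8a was -0.36 ± 0.080 in E93RNAi and 0.40 ± 0.040 in control (SD, n = 3 each), a difference of -0.76. Orco over Ir8a differed by -0.66 and Ir76b over Ir8a by -0.51 on the log2 scale between E93RNAi and control. The ratios that leave out Ir8a moved less. Ir76b over Ir25a differed by 0.25, Orco over Ir76b by -0.15 and Orco over Ir25a by 0.10. In all 6 ratios the groups did not overlap, and each gave an exact permutation p of 0.1 (two-sided), the lowest value open to 3 samples against 3, with an adjusted p of 0.13 over 13 ratios tested. The ratio of Orco to Ir25a, 2 genes that both fell, was higher in each E93RNAi sample than in any control sample.

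The tuning odorant receptors were set beside Orco to compare the total they make with the co-receptor. Of 38 receptors listed for antennal Or neurons, 35 were tested, 12 rose, 15 fell and 8 did not pass. Among the rises, the calls of Or7a and Or49b were lost when some single samples were left out. Their edgeR adjusted p-values reached 0.155 for Or7a (without E93RNAi replicate 3) and 0.082 for Or49b (without control replicate 2). The median log2 fold change of the 35 tested receptors was -0.018, against 0.00028 over all tested genes. The list was 77.1% called, against 24.3% of all tested genes. Or10a, Or49a and Or98b were too low to be tested, and Or10a shares all of its exons with Gr10a, so a listed count of 0 does not show its absence. The largest falls were in Or65a, Or65b and Or65c, which share the at4 trichoid neurons. Or65a had 0.134 ± 0.137 CPM in E93RNAi and 46.3 ± 1.82 CPM in control, Or65b had 0.325 ± 0.277 CPM in E93RNAi and 58.8 ± 3.97 CPM in control (SD, n = 3 each), and Or65c had 2, 0 and 0 reads in E93RNAi against 249, 265 and 266 in control. These 3 near copies may share reads. The largest rises were Or33b, with 86, 123 and 101 reads in E93RNAi against 2, 0 and 1 in control, Or19a, with a log2 fold change of 2.92 ± 0.12 (SE; edgeR adjusted p = 3.87e-09), and Or43b, with 0.91 ± 0.051 (SE; edgeR adjusted p = 7.12e-08). Or19a has a near-identical copy, Or19b, and Or43b overlaps Cul1 on the opposite strand.

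The sum over all 38 tuning receptors was 1381, 1405 and 1434 CPM per kilobase in E93RNAi, against 1649, 1592 and 1647 CPM per kilobase in control. The groups did not overlap, and the mean sum fell by 13.7%, close to the 12.8% of Orco. Receptors that passed the test downward fell by 414.0 CPM per kilobase in all, and those that passed upward gained 183.8. Orco itself fell by 219.3 CPM per kilobase, beside a net difference of -222.9 for the tuning receptors. The ratio of the summed tuning receptors to Orco was 0.913, 0.953 and 0.970 in E93RNAi, against 0.978, 0.938 and 0.947 in control. The groups overlapped, with a log2 difference of -0.014 (two-sided exact permutation test p = 0.7, adjusted p = 0.7 over 13 ratios). The difference lay between -0.033 and 0.011 when each sample was left out in turn. The sum is weighted by abundance. With every tested receptor weighted equally, as the mean of log2(CPM + 0.1) per kilobase, the difference was -0.76, and it was -0.53 with 1 CPM in place of 0.1. The receptors Or47b, Or65a, Or65b, Or65c, Or83c and Or85b, with 0 to 19 reads in each E93RNAi sample, weigh heavily in such a mean. Or33b, with 0 to 2 reads in each control sample, weighs the other way. The mean without these receptors was not computed, so its sign may rest on them. The value of -0.76 had no overlap between the groups (two-sided exact permutation p = 0.1, the lowest possible). Or lengths and Orco length come from the Ensembl annotation, and the ratio near 1 depends on them.

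**Figure D2:**
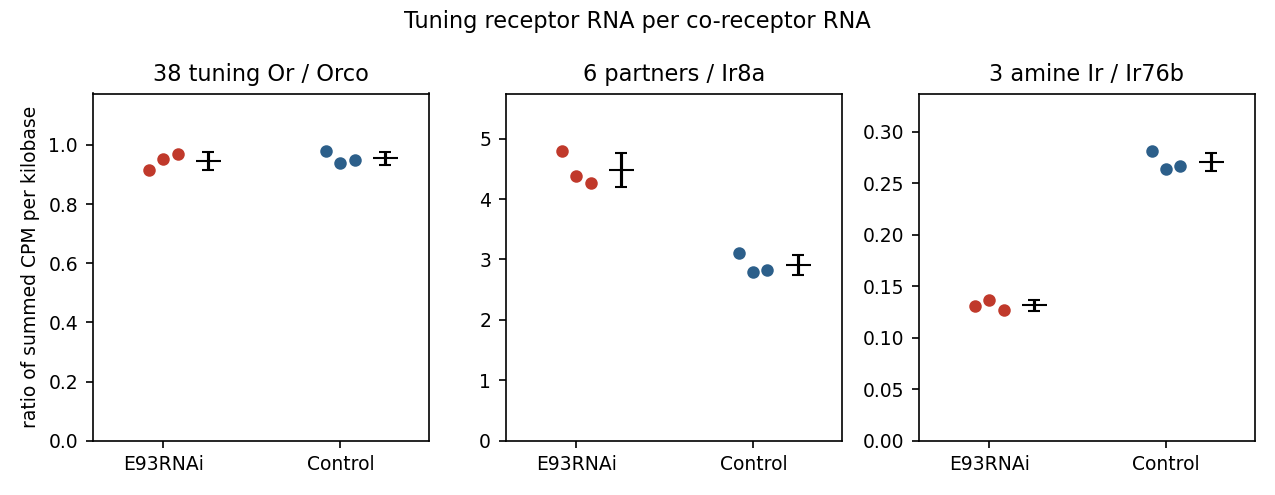
Summed tuning receptor RNA divided by the co-receptor's RNA in the same sample, as a ratio of CPM per kilobase of exon, with E93RNAi left of control. Points are samples (n = 3 each), the bar and whiskers are the mean and SD, and axes start at 0. The Or to Orco ratio overlaps between groups (0.913 to 0.970 against 0.938 to 0.978), the Ir8a partner ratio is higher in E93RNAi (4.26 to 4.79 against 2.79 to 3.10), and the amine receptor ratio is lower (0.127 to 0.137 against 0.264 to 0.281).

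The partners of Ir8a rose with it, with 1 exception. Of the 6 listed, 5 rose and 1 fell, beside 24.3% of all tested genes called, 13.8% higher and 10.5% lower. Ir75a, Ir75b and Ir75c are acid receptors encoded by neighbouring genes. Ir75a had 404.6 ± 7.99 CPM in E93RNAi and 191.8 ± 6.71 CPM in control (SD, n = 3 each; log2 fold change 1.08 ± 0.043 SE, edgeR adjusted p = 3.34e-09). Ir75b had 254.8 ± 3.95 CPM in E93RNAi and 83.2 ± 1.71 CPM in control, and Ir75c had 221.7 ± 17.2 CPM in E93RNAi and 45.5 ± 1.66 CPM in control. Ir31a rose by 0.29 and Ir64a, a receptor of sacculus neurons, rose by 0.25 on the log2 scale (edgeR adjusted p = 0.0013 and 0.000391). The log2 fold change of Ir8a itself was 0.46. Ir84a, a receptor for food-derived aromatic odours that promotes male courtship, had 0.117, 0.279 and 0.0542 CPM in E93RNAi, against 37.0, 41.3 and 38.5 CPM in control.

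As a sum, the Ir8a partners gained more RNA than their co-receptor. Their sum was 558.8, 548.6 and 540.3 CPM per kilobase in E93RNAi, against 262.8, 255.9 and 258.1 in control. The mean sum was 112.1% higher, beside 37.7% for Ir8a. Of the 310.4 CPM per kilobase gained by the risen partners, Ir75a gained 107.4, Ir75b 94.4 and Ir75c 94.1. Ir84a fell by 20.04 CPM per kilobase. The ratio of the partners to Ir8a was 4.79, 4.39 and 4.26 in E93RNAi, against 3.10, 2.79 and 2.83 in control, a log2 difference of 0.62 with no overlap (two-sided exact permutation p = 0.1, the lowest possible, adjusted p = 0.13 over 13 ratios). With every partner weighted equally, as the mean of log2(CPM + 0.1) per kilobase, the difference was -0.77, and it was -0.40 with 1 CPM in place of 0.1. That sign rests on Ir84a, with 2, 5 and 1 reads in E93RNAi against 608, 723 and 702 in control: without it the same mean gave 0.64.

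The amine receptors that use Ir25a and Ir76b went down as a sum while Ir76b did not pass the test. Ir92a, an amine and ammonia receptor of ac1 neurons, had 0.41, 0.223 and 0.38 CPM in E93RNAi, against 35.3, 33.7 and 35.9 CPM in control. Ir76a fell by 1.11 on the log2 scale (edgeR adjusted p = 7.13e-08), with 17.2 ± 0.715 CPM in E93RNAi and 37.1 ± 0.844 CPM in control (SD, n = 3 each). Ir41a rose by 1.32 (edgeR adjusted p = 6.29e-07), with 23.2 ± 1.77 CPM in E93RNAi and 9.29 ± 0.974 CPM in control. Ir76a overlaps CG14102 on the opposite strand. The sum of the 3 was 18.8, 18.6 and 17.2 CPM per kilobase in E93RNAi, against 39.75, 37.97 and 38.51 in control. Both sums were far below the level of Ir76b, whose RNA exceeded them several-fold in every sample. The ratio to Ir76b was 0.131, 0.137 and 0.127 in E93RNAi, against 0.281, 0.264 and 0.267 in control, a log2 difference of -1.04 (two-sided exact permutation p = 0.1, the lowest possible, adjusted p = 0.13 over 13 ratios).

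The temperature and humidity receptors that work with Ir25a changed less. Of 4 tested, 2 fell and 2 did not pass, beside 10.5% of all tested genes called lower. Ir40a, a dry-air receptor of the sacculus, fell by 0.56 on the log2 scale (edgeR adjusted p = 1.99e-06) and had 67.1 ± 1.66 CPM in E93RNAi and 98.9 ± 3.89 CPM in control (SD, n = 3 each). Ir21a, a cool receptor of the arista, fell by 0.31 (edgeR adjusted p = 0.000908), and overlaps an antisense RNA gene, so its counts depend on strand. Ir93a, the second co-receptor of these neurons, had 10.8, 11.8 and 11.5 CPM in E93RNAi, against 10.2, 9.71 and 9.59 CPM in control. All its E93RNAi samples were above all control samples, but the log2 fold change of 0.21 ± 0.090 (SE) had an adjusted p of 0.115 (edgeR). Ir68a, a moist-air receptor, was near the floor, at 0.651 to 1.11 CPM in E93RNAi and 0.426 to 1.15 CPM in control. The summed level of the 4 was 45.6 ± 0.648 CPM per kilobase in E93RNAi and 60.1 ± 0.810 in control.

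Gr21a and Gr63a form the CO2 receptor of ab1 neurons, which function with neither Orco nor an Ir co-receptor. Both fell, and further than Orco. Gr21a had 41.2 ± 1.12 CPM in E93RNAi and 84.3 ± 2.32 CPM in control (log2 fold change -1.03 ± 0.046 SE, edgeR adjusted p = 8.86e-09). Gr63a had 113.1 ± 1.34 CPM in E93RNAi and 152.5 ± 8.40 CPM in control (SD, n = 3 each; log2 fold change -0.43 ± 0.047 SE, edgeR adjusted p = 2.63e-05).

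**Figure D3:**
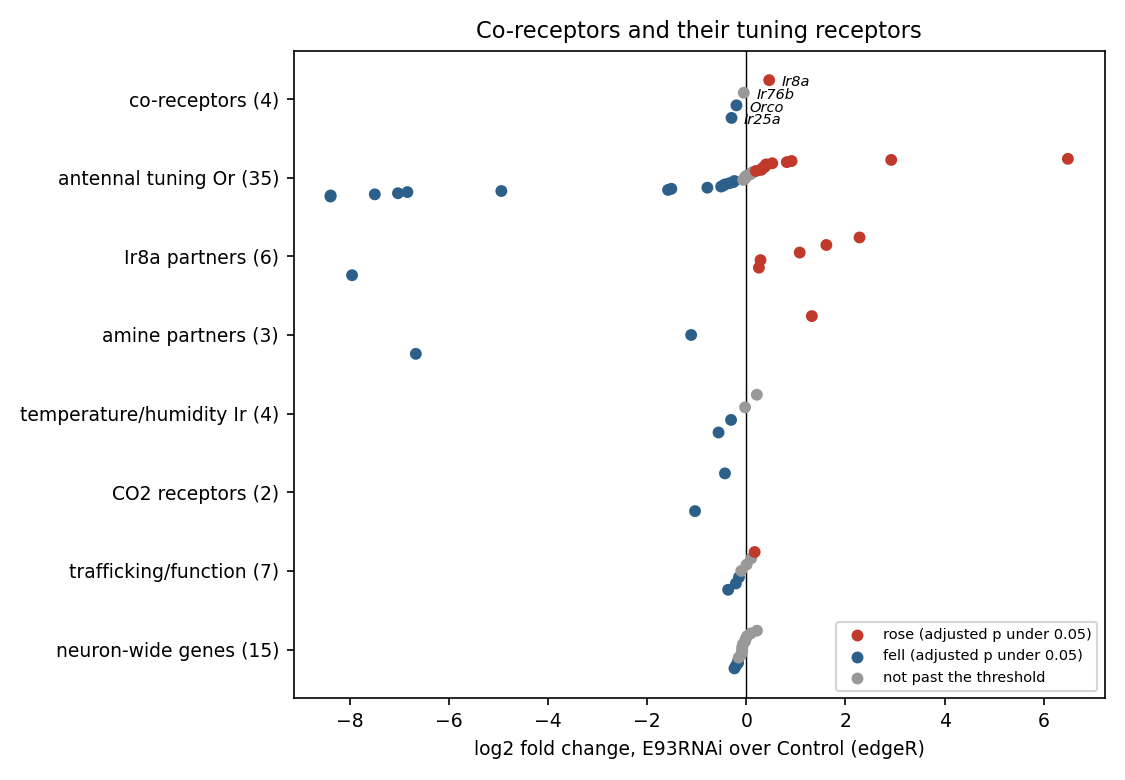
Log2 fold change of E93RNAi over control (edgeR, n = 3 each) for every tested gene of each list, with the number tested in brackets. Points are genes, spread vertically within a row. Red rose, blue fell and grey did not pass an adjusted p of 0.05. The 4 co-receptors lie between -0.30 and 0.46, while tuning receptors reach -8.39 and 6.49; fitted values of genes near 0 in 1 group depend on a prior count.

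Genes that act on Orco signalling, or on transport into the cilium where the receptors sit, were examined as a list of 7. All were tested, 1 rose, 3 fell and 3 did not pass, beside 24.3% of all tested genes called. ATP8B, a lipid flippase that Or neurons need for normal odour responses, fell by 0.21 on the log2 scale (edgeR adjusted p = 0.00487) and had 1149 ± 50.0 CPM in E93RNAi and 1329 ± 31.6 CPM in control (SD, n = 3 each). Its change was of the size seen for Orco. Snmp1, a CD36-family protein of pheromone-sensing neurons and support cells, fell by 0.37 (edgeR adjusted p = 0.000235). The calmodulin gene Cam fell by 0.15 (edgeR adjusted p = 0.0243) and the protein kinase C gene Pkc53E rose by 0.17 (edgeR adjusted p = 0.0223). Both of these calls were lost when 1 sample was left out, with adjusted p-values of up to 0.0878 for Cam (without control replicate 3) and up to 0.105 for Pkc53E (without control replicate 3) in edgeR. The tubby-family cilium adaptor ktub (-0.10) and the BBSome subunits BBS1 (0.01) and BBS4 (0.10) had adjusted p-values of 0.0935 to 0.955 (edgeR). BBS4 passed upward with library totals in place of TMM (edgeR adjusted p = 0.0305) and with a trend on exon length removed (edgeR adjusted p = 0.0182).

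To set the co-receptors beside genes used widely by neurons, 15 genes called neuron-wide here were listed. ChAT and VAChT among them belong to neurons that use acetylcholine. All 15 were tested, none rose, 4 fell and 11 did not pass, so that 26.7% were called, against 24.3% of all tested genes. Their median log2 fold change was -0.08. The pan-neuronal RNA-binding protein gene elav had 187.5 ± 5.45 CPM in E93RNAi and 196.4 ± 8.14 CPM in control (SD, n = 3 each; edgeR adjusted p = 0.341). The 4 that fell were the acetylcholine genes ChAT (-0.16, adjusted p = 0.00972) and VAChT (-0.21, adjusted p = 0.00557), which share an exon, the sodium pump subunit gene nrv3 (-0.17, adjusted p = 0.016) and the active zone gene Rim (-0.24, adjusted p = 0.012), all log2 fold changes in edgeR. The calls of nrv3 and Rim were lost without E93RNAi replicate 3 (edgeR adjusted p = 0.0703 and 0.0526) and without control replicate 2 (edgeR adjusted p = 0.0503 and 0.0516). The microtubule-binding gene futsch (0.22, edgeR adjusted p = 0.128) passed upward without E93RNAi replicate 3 (edgeR adjusted p = 0.0145), without control replicate 2 (0.0352), without the filter (0.0235) and with the length trend removed (0.0296).

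Each co-receptor was then divided by the mean of these 15 genes within its sample, on the log2 scale. Orco relative to them was 3.07, 3.05 and 3.17 in E93RNAi, against 3.23, 3.14 and 3.29 in control. These groups overlapped, and the difference of -0.13 had an exact permutation p of 0.2 (two-sided; adjusted p = 0.236 over 13 ratios). Ir25a relative to them was 0.02 ± 0.053 in E93RNAi and 0.24 ± 0.069 in control (SD, n = 3 each), a difference of -0.23 with no overlap. Ir8a relative to them was 0.03 ± 0.12 in E93RNAi and -0.50 ± 0.063 in control (SD, n = 3 each), a difference of 0.53 with no overlap. Both gave an exact permutation p of 0.1, the lowest possible. Ir76b relative to them was -0.08 ± 0.061 in E93RNAi and -0.10 ± 0.058 in control (SD, n = 3 each), a difference of 0.02 (two-sided exact permutation test p = 0.7). The neuron-wide genes are long, with a median of 9561 bp of exon sequence against 2559.5 bp for the co-receptors. Once a per-sample trend on exon length was removed, the Orco difference was -0.13 without overlap (two-sided exact permutation test p = 0.1).

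**Figure D4:**
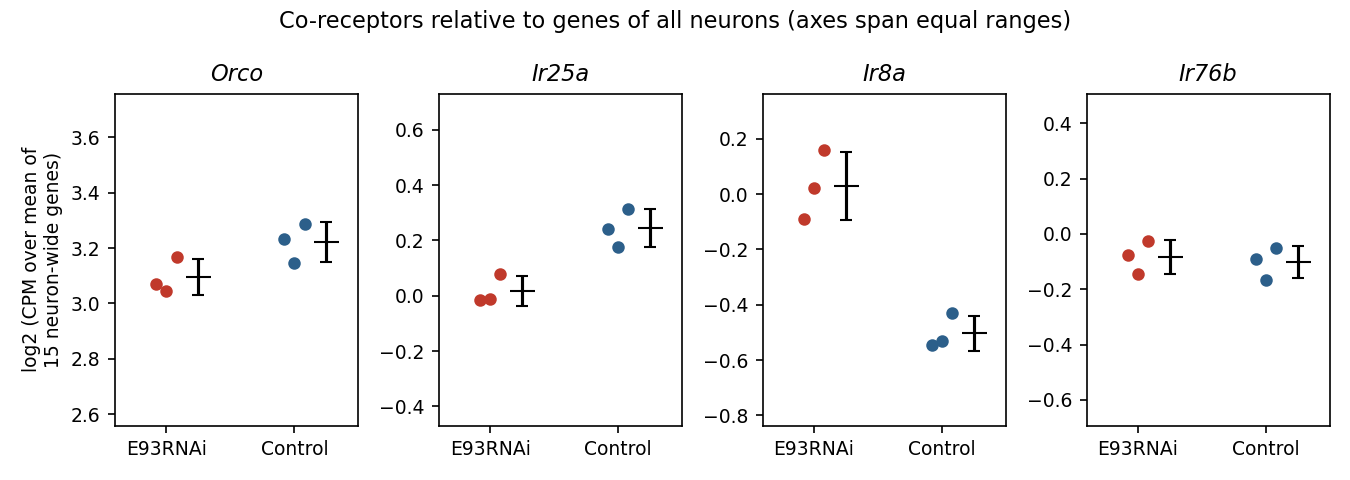
Log2 ratio of each co-receptor's CPM to the mean of 15 neuron-wide genes in the same sample, with E93RNAi left of control. Points are samples (n = 3 each), the bar and whiskers are the mean and SD, and each axis spans the same range of log2 units. Ir25a is lower and Ir8a higher in all 3 E93RNAi samples, while the Orco and Ir76b groups overlap.

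Markers of other cells were listed to show what else the samples held, and their counts stand beside 13.8% of all tested genes called higher and 10.5% called lower. Support-cell odorant-binding protein genes were 4 of 6 higher past the threshold, with summed levels of 42763 to 45994 CPM in E93RNAi and 38865 to 40830 CPM in control. Obp83b and Obp19d did not pass. Obp19d, the most abundant, had 16324 ± 733 CPM in E93RNAi and 17567 ± 761 CPM in control (SD, n = 3 each), with overlap. With the replicate block Obp83b passed upward and Obp19d downward (edgeR adjusted p = 0.0163 and 0.0388). Obp83b, whose groups did not overlap, also passed upward with library totals and without control replicate 1 (edgeR adjusted p = 0.028 and 0.0308). It passed in DESeq2 as well (adjusted p = 0.0391). Of 6 tested glial genes 5 rose and Gs2 fell, and alrm had at most 5 reads in any sample. The summed glial level was 2728 to 2783 CPM in E93RNAi and 2987 to 3110 CPM in control, most of it Gs2. Photoreceptor genes summed to 6.94 to 8.78 CPM in E93RNAi and 3.59 to 4.34 CPM in control, with at most 5 reads of ninaE in any sample. Of 3 tested photoreceptor genes 2 rose, and Rh5 did not pass. Rh4 had 18, 11 and 14 reads in E93RNAi against 1, 2 and 1 in control. ninaC had 107, 96 and 89 reads in E93RNAi against 34, 44 and 50 in control. Muscle genes summed to 4.36 to 21.4 CPM in E93RNAi and 4.80 to 6.69 CPM in control, and Act88F had at most 2 reads. Of 3 tested muscle genes Mhc rose, and Mlc2 and TpnC4 did not pass. Mhc had 205, 22 and 222 reads in E93RNAi replicates 1 to 3, against 42, 11 and 32 in control. Its groups overlapped, and its call was lost in DESeq2 (adjusted p = 0.084) and limma (adjusted p = 0.201). The muscle sum was thus uneven within E93RNAi, lowest in replicate 2. The maxillary palp also holds Orco neurons, and its 7 receptor genes summed to 26.9 to 29.3 CPM in E93RNAi and 30.8 to 37.5 CPM in control. Most of that was Or46a, which lies wholly within an antisense RNA gene, and these sums are small beside the 2861 CPM or more of Orco. Of 5 tested palp receptor genes Or46a fell, Or85e rose and 3 did not pass. Or85e had 30, 51 and 49 reads in E93RNAi against 32, 15 and 7 in control (edgeR adjusted p = 0.0491). Its groups overlapped, and its call was lost with the replicate block (edgeR adjusted p = 0.0548). Or59c was uneven within both groups, at 2, 21 and 14 reads in E93RNAi against 22, 1 and 0 in control. Of 6 tested taste neuron genes, whose neurons use Ir25a and Ir76b, 3 fell and 3 did not pass, with sums of 117.0 to 121.5 CPM in E93RNAi and 126.1 to 136.7 CPM in control. Their part in the co-receptor changes was not tested.

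The genes most like each co-receptor were sought by the Pearson correlation of log2 CPM over the 6 samples, among the other 7523 genes with a mean of at least 100 reads. The values describe the pattern, which for called genes is mostly the difference between the groups. For Orco they included the sialyltransferase gene SiaT (r = 0.999) and the glutamine synthetase gene Gs2 (0.997). SiaT had 21.3 ± 1.31 CPM in E93RNAi and 34.2 ± 1.48 CPM in control (SD, n = 3 each). For Ir25a they were Gs2 (r = 0.999), Jhbp2 (0.999) and the odorant receptor gene Or22b (0.998), which is a near copy of Or22a. Jhbp2 had 4.76 ± 0.353 CPM in E93RNAi and 20.2 ± 2.06 CPM in control. For Ir8a they were the chaperone gene Hsc70-4 (r = 0.997), Pdcd4 (0.997) and the gap junction gene ogre (0.997), with 2352 ± 63.3 CPM of Hsc70-4 in E93RNAi and 1974 ± 68.7 CPM in control. A correlation over 0.95 was found for 331 genes with Orco, 331 with Ir25a and 303 with Ir8a, and for 15 with Ir76b. For Ir76b the nearest genes were CG3184 (r = 0.987), the CTP synthase gene Ctps (0.973) and cv-2 (0.972), and none of these 3 passed the test between the groups (edgeR adjusted p = 0.165 to 0.311).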

How the data were processed

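The authors deposited unnormalised counts of reads per gene, 1 file per sample, for 17698 FlyBase identifiers and 5 summary lines that were left out of library sizes; ambiguous reads were 1.93% to 2.04%, unassigned reads 2.65% to 2.93% and multiply aligned reads 8.47% to 8.85% of listed reads. Per the submitters' processing notes, cutadapt 1.8, STAR 2.5.3a, HTSeq 0.9.1 and build BDGP6 were used; the annotation and strand setting are not given in the sources used here. Symbols matched 17560 identifiers. Exon lengths and overlaps came from Ensembl release 115.

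Counts were filtered with filterByExpr, scaled by TMM and compared by the quasi-likelihood test of edgeR with group as the sole term (edgeR 4.0.16, limma 3.58.1, DESeq2 1.42.0, R 4.3.3), with Benjamini-Hochberg adjustment over 9237 genes and a threshold of 0.05. Standard errors come from the F statistic. Fits were also run on simulated counts with fewer changed genes than were called here, and the outcome is not reported here. Ratios used exact permutation tests over samples. The labels call the samples biological replicates. Floors cover counting error only, since reads without molecular identifiers are not independent molecules. The co-receptors and lists were chosen with earlier results of these data known. Named were the co-receptors, Eip93F, the tested genes of the lists of up to 7 receptor, CO2 and trafficking genes, the 3 largest rises and falls among antennal Or, and the 3 genes most like each co-receptor, of which 1 is not reported here; other genes named were chosen after their values were seen. Alternatives were other scalings, filters and tools, a replicate block, leaving out each sample, and stricter thresholds. Removal of a trend on exon length, a pseudocount of 1 CPM and the mean without Ir84a were chosen after seeing the data.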

Additional observations from a re-analysis of the deposited data

How the results depend on the processing

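Each of the 4 co-receptor results kept its direction and its side of the threshold in all 18 alternatives tried. Orco lay between -0.21 and -0.17 on the log2 scale (adjusted p at most 0.0288), Ir25a between -0.32 and -0.27 (at most 0.00208), Ir8a between 0.42 and 0.49 (at most 0.000216) and Ir76b between -0.08 and -0.02 (0.222 to 0.743), by edgeR, DESeq2 or limma. The count of changed genes was 1711 to 2155 with each sample left out, 1482 at an adjusted p under 0.01 and 463 where the log2 fold change also had to reach 1, both by construction stricter. The log2 difference of the tuning Or sum over Orco turned from -0.014 to 0.011 without E93RNAi replicate 1, 0.0038 without control replicate 1 and 0.0033 without division by exon length, and it ranged from -0.033 to 0.011 over the left-out samples. That of Ir76b over neuron-wide genes turned from 0.02 to -0.0084 without E93RNAi replicate 3, -0.011 without control replicate 2 and -0.0011 with the summed list, with a range of -0.011 to 0.053 over the left-out samples. The Ir8a partner ratio turned to -0.77 as a mean of log2 values with a pseudocount of 0.1 CPM and to -0.40 with 1 CPM; without Ir84a, near 0 in E93RNAi, it was 0.64. The replicate block gave 2430 changed genes and -0.20 for Orco (adjusted p = 0.0017, edgeR), and futsch then passed upward (adjusted p = 0.03, edgeR). Same-numbered samples correlated in their deviations from group means at 0.172, 0.045 and 0.137 for numbers 1 to 3 over 8707 genes. Each control replicate correlated most with the E93RNAi replicate of its own number. E93RNAi replicate 2 correlated somewhat more with control replicate 3 (0.0597). A pairing by number is thus possible, but the labels do not tie the pairs to the numbers. The main test therefore took no pairs, and the replicate block was the alternative. Exact tests of 3 samples against 3 cannot go below 0.1.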

Other observations

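Of 50 ionotropic receptor genes outside the lists, 4 passed the filter on low counts, of which 2 rose and none fell, beside 24.3% of all tested genes called. Of the 46 not tested, 15 had 0 reads in all samples and 31 had reads, with at most 10 in any sample. Ir60a, a receptor known from the pharynx, had 7.20 ± 1.44 CPM in E93RNAi and 3.63 ± 0.627 CPM in control (SD, n = 3 each; log2 fold change 0.98, adjusted p = 0.00141, edgeR). Ir75d, an olfactory receptor of coeloconic neurons, had 9.54 ± 0.617 CPM in E93RNAi and 7.06 ± 1.26 CPM in control (log2 fold change 0.43, adjusted p = 0.032, edgeR). Its call was lost in DESeq2 (adjusted p = 0.055), without each of E93RNAi replicates 1, 2 and 3 (adjusted p = 0.0854, 0.0501 and 0.0624, edgeR) and without control replicate 2 (log2 fold change 0.29, adjusted p = 0.116, edgeR). Ir62a and Ir56a did not pass (adjusted p = 0.167 and 0.542, edgeR). Among 5 genes listed for mechanosensory neurons of the second antennal segment, nompC, a mechanically gated channel gene, had 51.4 ± 5.65 CPM in E93RNAi and 7.87 ± 0.776 CPM in control (log2 fold change 2.70, adjusted p = 1.55e-09, edgeR). The other 3 tested genes, iav, nompB and btv, did not pass. Counts of iav were low, at 17, 20 and 30 reads in E93RNAi against 51, 24 and 20 in control. The gene nan was too low to be tested, with 2, 2 and 9 reads in E93RNAi against 7, 2 and 10 in control.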
